A study of Mus musculus with 4 samples.

Results

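The 88 ribosomal protein genes described here are those of 46406 rows in an ATAC-seq table whose symbol has the form Rpl, Rps, Rplp or Rpsa, with processed pseudogenes and the Rps6k kinases left out. By their symbols 53 belong to the large and 35 to the small ribosomal subunit. Of these, 77 are the genes of the standard subunit proteins (46 large, 31 small), called core genes below, and 11 are paralogues or copies with names derived from a core gene, among them Rpl10l and Rpl3l. The cells were J1 mouse embryonic stem cells, an established line, labelled as passage PN+8 and as grown on no feeder layer. There were 2 control libraries, labelled wild type, and 2 libraries of cells overexpressing Zscan4 (Zscan4 OE). The labels give neither the construct, nor the promoter that drives it, nor whether a library came from 1 clone, and they do not say whether replicates came from separate cultures, so a p-value here reflects only how far the libraries of a group lie apart, which may be technical.

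Ribosomal proteins build, with ribosomal RNA, the large and small subunits of the ribosome: the small subunit reads the messenger RNA and the large subunit joins amino acids. The subunits hold nearly all of these proteins once each, so cells make them in near equal amounts, from short genes with open promoters that are transcribed strongly in nearly every cell type. Embryonic stem cells divide fast and transcribe them at a high rate. Zscan4 is a zinc finger protein of the early mouse embryo and of a passing state of embryonic stem cells. The series title ties it to chromatin opening, and the question here is whether these constitutively open genes differ in accessibility when it is overexpressed.

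ATAC-seq cuts open DNA with a transposase, so reads gather where chromatin is accessible. The table counts reads over the exons of each gene, and RPM below means reads per 1000000 reads of the library total and RPKM means RPM per kilobase of exon, after the rescaling described in the methods. The control totals were 1061428 (replicate 1) and 2903602 reads (replicate 2) and the Zscan4 OE totals 3605774 and 4899494 reads, of which exons held 9.38% to 12.8%. All 88 genes had at least 1 read. A core gene had 13 to 159 reads over the 4 libraries, with a median of 49, and 74 genes (71 core, 3 paralogues) reached 20 reads. A count of 0 allows up to 3 reads at 95% confidence, which is 2.83 RPM in control 1, 1.03 in control 2, 0.832 in Zscan4 OE 1 and 0.612 in Zscan4 OE 2. All 12 stem cell marker genes had reads, but so did all 10 fibroblast genes, Pou5f1 with 1.23 to 3.77 in controls and Col1a1 with 1.58 to 1.78 RPKM, so exon accessibility checks the cell type label only in part.

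Exons of ribosomal protein genes were more accessible than those of most genes in every library. Over the 74 genes with 20 reads or more, the median was 2.22 and 1.32 RPKM in controls 1 and 2 and 3.08 and 1.62 RPKM in Zscan4 OE 1 and 2. The median of all 19012 rows with as many reads was 1.09, 0.871, 1.18 and 0.932 RPKM in the same order. The ratio of the medians was 2.04, 1.51, 2.61 and 1.74, or 1.98 ± 0.477 (SD, n = 4), and above 1 in each library. Of the 74 genes, 62, 56, 72 and 69 lay above the median row of their library. The median ribosomal protein gene stood above 75.7% of rows in control 2, where it was lowest, and above 90.1% in Zscan4 OE 1, where it was highest. With means in place of medians the ratio was 1.35, and with no minimum of reads it was 3.10. The 74 genes had shorter exons, with a median of 1805.5 bp against 3867 bp over the 19012 rows. RPKM fell with exon length over all these rows, as given below. The part of exon length in the ratio was not tested.

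**Figure D1:**
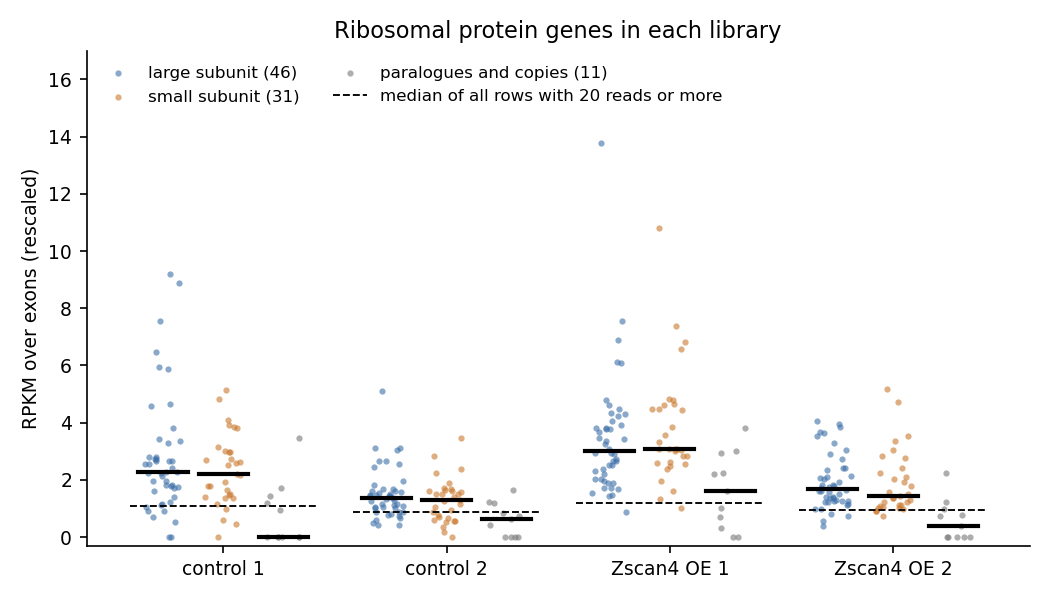
RPKM over exons (vertical axis) of each ribosomal protein gene in each of the 4 libraries, with large subunit genes in blue, small subunit genes in orange and paralogues and copies in grey. Each point is 1 gene, black bars are group medians and the dashed line is the median of all rows with 20 reads or more; the core genes lie mostly above it in each library, and the medians of both subunits run from 1.31 to 1.38 in control 2 to 3.02 to 3.09 RPKM in Zscan4 OE 1.

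Large and small subunit genes did not differ in level by more than the spread between libraries. The large subunit median over the small subunit median, across all 88 genes, was 0.982 in control 1, 1.11 in control 2, 0.95 in Zscan4 OE 1 and 1.14 in Zscan4 OE 2, or 1.05 ± 0.0951 (SD, n = 4). The ratio fell on both sides of 1 in each group. Among core genes it was 1.02, 1.06, 0.978 and 1.18. The values of the groups overlapped there too.

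The most accessible genes were short ones. By mean RPKM over the 4 libraries the 4 highest with 20 reads or more were Rpl41, Rps29, Rpl36 and Rpl23a. Rpl41 (chr10:128548110-128549168, GRCm38), which encodes a very short basic protein of the large subunit, was at 6.45 and 2.65 RPKM in the controls and 13.8 and 3.84 RPKM in Zscan4 OE. Zscan4 OE 1 stood far above the other 3 libraries there, and the groups overlapped. Rps29 (chr12:69157722-69159186), a zinc finger protein of the small subunit head, was at 4.08 and 3.48 RPKM in the controls and 10.8 and 4.71 RPKM in Zscan4 OE. Both Zscan4 OE libraries were above both controls. Rpl36 rested on 2, 6, 11 and 8 reads and ran from 4.04 to 7.55 RPKM, without separating the groups. Rpl23a, a protein at the exit of the peptide tunnel, was at 8.90 RPKM in control 1, 1.63 in control 2, 6.88 in Zscan4 OE 1 and 2.89 in Zscan4 OE 2. Its lowest and highest values were both controls.

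Among genes with 20 reads or more, the 4 lowest by mean RPKM were Rps4x, Rps7, Rpl35a and Rpl10. Rps4x (chrX:102184941-102189391), the X-linked gene of a small subunit protein, had 0, 8, 6 and 6 reads in the libraries in the usual order. Rpl10 (chrX:74270816-74273135), whose protein completes the large subunit late in its assembly, was at 0.918 and 0.671 RPKM in the controls and 1.89 and 0.994 RPKM in Zscan4 OE. Rpl35a was at 1.07 and 1.47 RPKM in the controls and 0.865 and 0.984 RPKM in Zscan4 OE. It was 1 of 2 genes with both Zscan4 OE values under both controls. All 4 X-linked genes (Rpl10, Rpl36a, Rpl39 and Rps4x) pooled stood at 0.63, 0.798, 0.582 and 0.642 of the autosomal core genes per kilobase. Pooled, the X-linked genes were thus lower in each of the 4 libraries, but on only 11, 20, 46 and 38 reads. The difference was not tested against counting error at these few reads. J1 is a male line, with a single X chromosome per cell. The part of X copy number in the lower level was not tested.

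**Figure D2:**
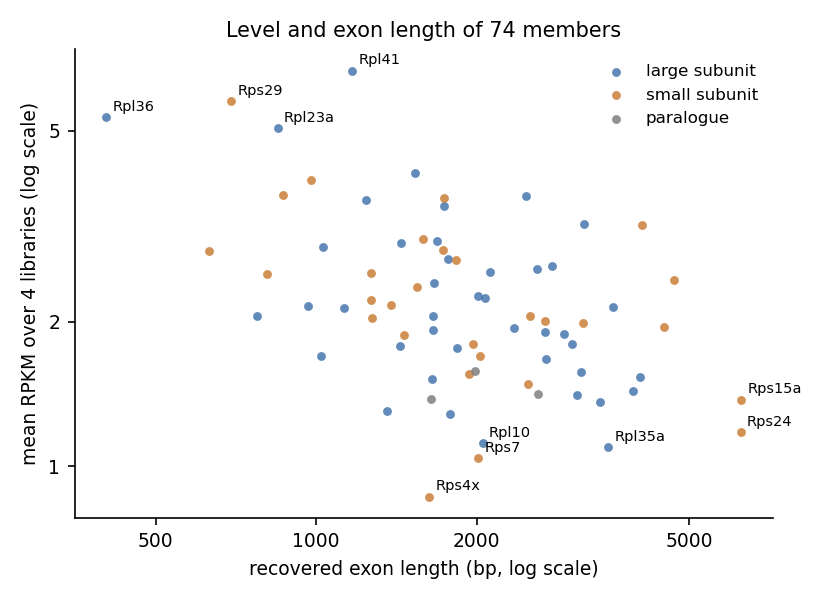
Mean RPKM over the 4 libraries (vertical, log scale) against recovered exon length in base pairs (horizontal, log scale) for the 74 ribosomal protein genes with 20 reads or more. Each point is 1 gene; Rpl41, Rps29, Rpl36 and Rpl23a are highest, and the longest, Rps15a and Rps24, are at 1.38 and 1.18 RPKM.

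Across these 74 genes mean RPKM fell with exon length, with r = -0.49 on log scales and rho = -0.44. The same was true of all 19012 rows with 20 reads or more (r = -0.64, rho = -0.53), so the relation is not particular to ribosomal protein genes. Length is part of the unit, and a read minimum removes short genes with low values; their part in the relation was not tested. The 39 core genes with exons of at most 1734 bp pooled to 2.82, 1.59, 4.18 and 2.01 RPKM, and the 38 longer ones to 2.21, 1.13, 2.77 and 1.65 RPKM. The shorter genes were higher in each library. The genes themselves are compact, with a median span of 3206.5 bp against 22622 bp over all rows with 20 reads or more. Counted exons came to a median of 63.4% of the span, against 18.1%. In some genes the recovered exon length exceeded the RefSeq span, at 154% in Rpl12 and 110% in Rpl41. Lengths and spans thus do not describe the same stretch in each gene, and the shares are approximate. Small nucleolar RNAs lie in introns of many ribosomal protein genes. Of 59 such annotated stretches in core genes, 39 were found in the table, in 23 genes and all with at least 1 read, and the other 20 were not analysed here. Their 16, 25, 90 and 44 reads came to 4.02, 2.30, 6.65 and 2.39 RPKM, the order of libraries seen in the exons. With only rows that had reads, and with stretches shorter than an exon, these levels are not set against those of exons.

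Promoter letters of 7 of these genes are printed. They are the highest gene Rpl41, Rps7 and Rps15 from the positive end of the comparison below, and Rps6, named by role. The others are Rpl10 with its paralogue Rpl10l, and the paralogue Rpl3l. No gene from the negative end is printed. Each line runs from 100 bases before to 20 bases after the transcription start, 5′ to 3′ on the transcribed strand, from RefSeq's promoter windows of build GRCm38.p6, with CGGAAG or its reverse complement CTTCCG in capitals. These are the core letters that ETS family factors such as GABPA recognise. The sequences lie at chr10:128549149-128549268 (minus strand) for Rpl41, chr4:86857348-86857467 (minus) for Rps6, chr12:28635934-28636053 (minus) for Rps7, chr10:80292331-80292450 (plus) for Rps15, chrX:74270716-74270835 (plus) for Rpl10, chr12:66284382-66284501 (minus) for Rpl10l and chr17:24727726-24727845 (plus) for Rpl3l.
Rpl41: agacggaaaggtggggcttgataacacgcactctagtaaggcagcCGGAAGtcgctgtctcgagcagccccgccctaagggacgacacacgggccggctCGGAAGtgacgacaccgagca
Rps6: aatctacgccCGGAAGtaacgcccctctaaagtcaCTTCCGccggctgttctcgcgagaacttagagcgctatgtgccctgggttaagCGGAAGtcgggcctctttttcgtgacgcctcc
Rps7: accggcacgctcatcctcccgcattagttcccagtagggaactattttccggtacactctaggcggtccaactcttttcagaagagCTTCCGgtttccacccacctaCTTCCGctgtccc
Rps15: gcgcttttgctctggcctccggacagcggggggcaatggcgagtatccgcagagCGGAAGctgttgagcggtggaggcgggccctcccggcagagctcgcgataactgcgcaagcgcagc
Rpl10: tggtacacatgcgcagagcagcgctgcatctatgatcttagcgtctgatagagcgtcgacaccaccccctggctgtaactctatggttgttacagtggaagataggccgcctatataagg
Rpl10l: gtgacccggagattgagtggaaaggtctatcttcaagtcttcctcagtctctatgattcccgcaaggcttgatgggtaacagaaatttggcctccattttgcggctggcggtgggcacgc
Rpl3l: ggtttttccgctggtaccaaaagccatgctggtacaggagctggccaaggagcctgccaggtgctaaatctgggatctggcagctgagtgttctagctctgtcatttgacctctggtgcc

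The printed core promoters of Rpl41, Rps6, Rps7 and Rps15 carried 2, 3, 2 and 1 such matches, and those of Rpl10, Rpl10l and Rpl3l carried 0. RefSeq windows of 300 bases, from 250 before to 50 after the start, were at hand for 64 of the 88 genes. CGGAAG on either strand was in 42 of them (65.6%), against 23.5% of protein-coding genes and 18.8% of all genes with a window. CTCTTTC on the transcribed strand, pyrimidine letters like those at which ribosomal protein genes of animals start transcription, was in 13 (20.3%), against 4.41% of protein-coding genes. The GC box letters GGGCGG on either strand were in 60.9% against 49.2%, and overlapped CGGAAG letters in 2 genes. The shares for the other letters searched were 9.38% against 3.57% for the YY1 letters AAGATGGC, 10.9% against 9.82% for TATAAA on the transcribed strand, and 9.38% against 8.91% for the E-box CACGTG. A match describes letters only and shows no binding. Exon levels of the 40 core genes with CGGAAG pooled to 2.31, 1.21, 3.38 and 1.71 RPKM, and those of the 17 without it to 2.28, 1.16, 2.34 and 1.47 RPKM. Pooled, the genes with CGGAAG were thus higher in each library, by little in the controls. By medians the genes with CGGAAG were lower in both controls and higher in both Zscan4 OE libraries. Their medians were 2.19, 1.16, 3.09 and 1.54 RPKM, and those of the genes without it 2.27, 1.45, 2.72 and 1.41 RPKM. The difference between the sets was not tested.

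Summed over the 88 genes, ribosomal protein exons had on average a higher RPM in Zscan4 OE, but the groups overlapped. They held 412, 605, 1891 and 1397 reads. Control 1 was at 388 RPM (exact Poisson 95% interval 352 to 428) and control 2 at 208 (192 to 226). Zscan4 OE 1 was at 524 (501 to 549) and Zscan4 OE 2 at 285 (270 to 300), below control 1. The control mean was 298 ± 127 and the Zscan4 OE mean 405 ± 169 RPM (SD, n = 2), a ratio of 1.36 that is smaller than the spread between replicates. With 2 libraries a group an exact two-sided permutation test cannot go below p = 0.333. Intervals cover counting error only.

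The libraries differed as much within a group as between groups. Replicate 1 was above replicate 2 by 1.86 times in controls (95% interval 1.64 to 2.11) and by 1.84 times in Zscan4 OE (1.72 to 1.97), against 1.32 and 1.29 times over all rows. Zscan4 OE 1 over control 1 was 1.35 (1.21 to 1.51) and Zscan4 OE 2 over control 2 was 1.37 (1.24 to 1.51), while Zscan4 OE 2 over control 1 was 0.735 (0.658 to 0.822). The direction of the difference thus turned on which libraries were paired. Without Zscan4 OE 1 the ratio of means was 0.956 and without control 2 it was 1.04, whereas without control 1 it was 1.94 and without Zscan4 OE 2 it was 1.76. As a share of exon reads in place of all reads the genes held 0.314%, 0.222%, 0.41% and 0.287%, in the same order. Summed stem cell markers ran in that order too, at 65.9, 43.7, 82.9 and 49.8 RPM, while fibroblast genes were at 50.9, 47.5, 41.6 and 41.4. The part of library quality or cell makeup in these orders was not tested.

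**Figure D3:**
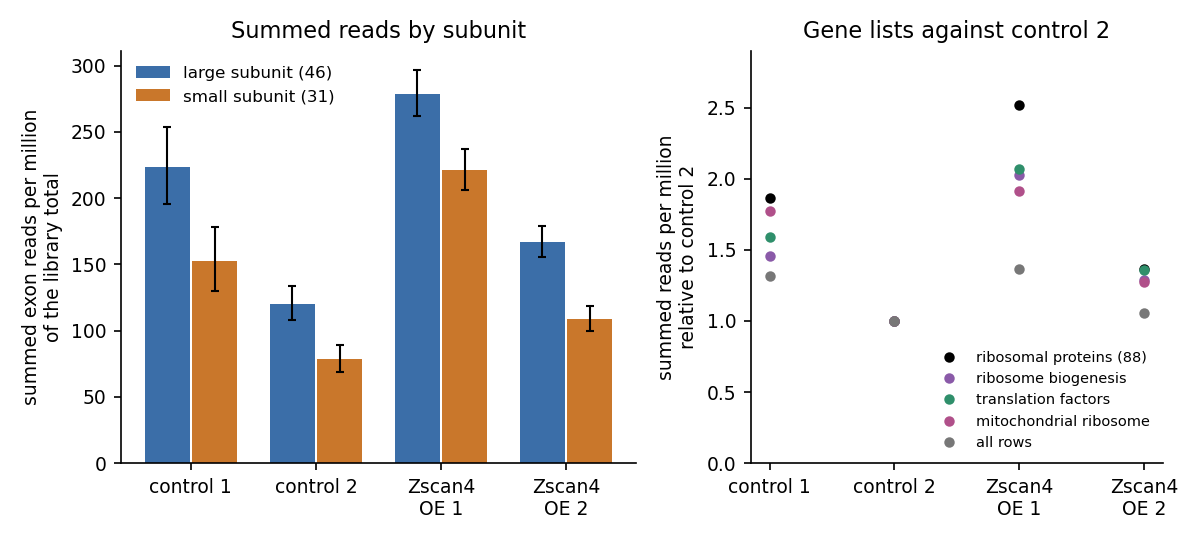
Left, summed exon RPM for the 46 large (blue) and 31 small (orange) core subunit genes, with exact Poisson 95% intervals as bars. Right, summed RPM of 4 gene lists and of all rows relative to control 2; the ribosomal protein genes range from 1 in control 2 to 2.52 in Zscan4 OE 1, and control 1 at 1.86 lies above Zscan4 OE 2 at 1.37.

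Both subunits followed this order of libraries, as did all rows together, at 12.36%, 9.38%, 12.8% and 9.93% of the library totals. Core large subunit genes summed to 223, 120, 279 and 167 RPM and core small subunit genes to 153, 78.5, 221 and 109. The ratio of Zscan4 OE to control means was 1.30 for the large and 1.43 for the small subunit, and 1.05 over all rows. Small over large subunit reads were 0.684, 0.653, 0.794 and 0.654. Zscan4 OE 1 had the highest share of small subunit reads, and the other 3 libraries lay close together.

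The same libraries were high and low gene by gene. Of the 74 genes with 20 reads or more, 51 (68.9%) were highest in Zscan4 OE 1, against 38.5% of all rows with as many reads, and 51 were lowest in control 2, against 41.8%. Zscan4 OE 1 was above Zscan4 OE 2 in 68 (91.9%, all rows 72.3%) and control 1 above control 2 in 57 (77%, all rows 65%). The levels of the 74 genes were only loosely ordered alike between libraries. Pearson's r of log2 values across these genes, which are not independent and share each library's depth, was 0.15 for the control pair, 0.54 for the Zscan4 OE pair and 0.27 to 0.46 for the 4 pairs across groups. Among core genes the chi-square of reads between replicates, over its degrees of freedom, was 1.23 in controls and 1.72 in Zscan4 OE, beside 1.67 and 1.84 over all rows. A value of 1 is what counting error alone gives. This measure sets aside the shift that all genes of a library share, so it speaks only of the order among genes, and the shared shift between controls, given above, was far beyond counting error.

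No ribosomal protein gene passed the test between Zscan4 OE and control. With limma on log2(RPKM + 0.1), fitted over the 42989 rows whose mean RPKM was 0.1 or more and adjusted by Benjamini-Hochberg over all of them, 0 of 87 tested genes were higher and 0 lower at an adjusted p under 0.05, as in 0% of all rows in either direction. Rpl6l, with 1 read, missed the minimum. The smallest adjusted p was 0.662, for Rpl10l. Log2 differences were positive for 71 and negative for 16 genes, against 62% positive over all rows, and their median was 0.42 against 0.28. Unadjusted, 3 genes were higher at p under 0.05 (Rpl10l, Rpl7 and Rpl7a, the last named after its value was seen) and 0 lower, beside a background of 5.09% of rows higher and 1.33% lower. The groups did not overlap in 25 genes higher and 2 lower in Zscan4 OE (Rpl29 and Rpl35a), where 19.6% and 10.1% of all rows were so. Voom on rows with 20 reads or more also called 0 genes (0% of rows higher, 0.00526% lower), and at an unadjusted p under 0.05 it had 6 genes higher and 0 lower, against 3.35% and 1.78% of rows.

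Restricted to the 74 genes with 20 reads or more the test gave no call either. Differences were positive in 64 and negative in 10, with a median of 0.45 against 0.14 over the 19012 rows, of which 60.3% were positive and 39.7% negative. Among the 74 genes, 24 were higher and 2 lower without overlap, where 20% and 11% of rows were. At an unadjusted p under 0.05 limma gave 7 higher and 0 lower genes, with 4.04% and 0.984% of rows, and the smallest adjusted p was 0.812, for Rpl8. No gene of the 74 was called, where 0.021% of rows were called higher and 0.00526% lower. At this minimum core small subunit genes had 26 positive and 3 negative differences with a median of 0.74, and core large subunit genes 35 and 7 with a median of 0.41. The difference between the subunits was not tested. Over the genes tested in each fit, with no minimum of reads, the median depended on the libraries and was 0.82 when control 1 was left out, 0.21 when control 2 was, 0.00 for Zscan4 OE 1 and 0.97 for Zscan4 OE 2. Centred on each library's median, 49 differences were positive and 38 negative, with a median of 0.14. Over all rows 50.1% were then positive, with a median of 0.00. The median of the genes lay 0.14 above that of all rows with and without centring.

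**Figure D4:**
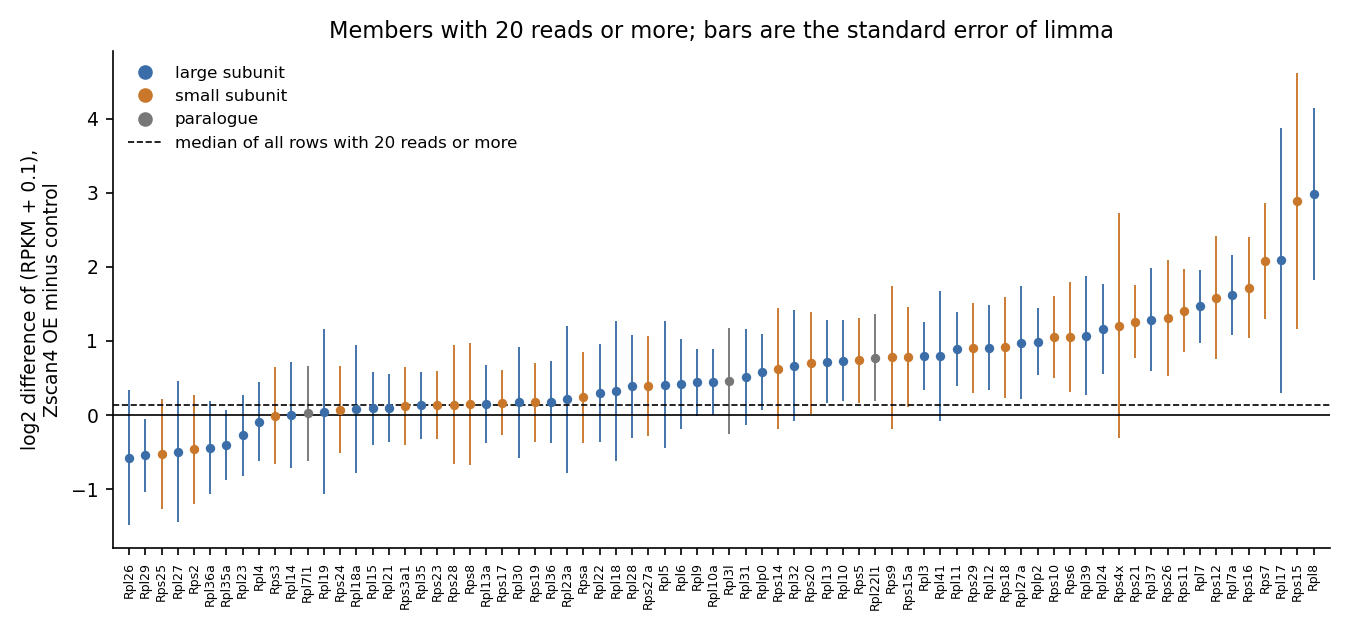
Log2 difference of RPKM + 0.1, Zscan4 OE minus control (vertical axis), for the 74 genes with 20 reads or more ordered by its size, with bars of 1 standard error from limma and the median of all rows with as many reads dashed. Of these, 64 lie above 0 and 10 below, and Rpl8, Rps15, Rpl17 and Rps7 are furthest above, with wide errors.

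Among genes with 20 reads or more, those with the largest positive differences had few or no reads in at least 1 control. Rpl8 (chr15:76904071-76906318), a large subunit protein near the catalytic centre, was at 0 and 0.76 RPKM in the controls and 2.04 and 2.40 RPKM in Zscan4 OE, from 0, 3, 10 and 16 reads. Both Zscan4 OE values were above both controls, but the limit for 0 reads in control 1 was 2.08 RPKM, above the value of Zscan4 OE 1. The log2 difference was 2.98 (SE 1.16, limma adjusted p = 0.811). Rps7 (chr12:28630847-28635953), a small subunit protein that also binds the p53 regulator Mdm2, was at 0.468 and 0.171 RPKM in the controls and 2.62 and 0.912 RPKM in Zscan4 OE. The groups did not overlap, on 1, 1, 19 and 9 reads, with a log2 difference of 2.08 (SE 0.787, adjusted p = 0.787). The printed promoter of Rps7 carries CTTCCG, and that of Rps15 carries CGGAAG. Such letters were in 42 of the 64 genes with a window, so they do not set these genes apart.

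Rps15 (chr10:80292431-80294114), a protein of the small subunit head, was at 2.99 and 0 RPKM in the controls and 3.08 and 5.18 RPKM in Zscan4 OE. Control 1 was nearly level with Zscan4 OE 1, and the limma log2 difference of 2.88 (SE 1.73) rested on the 0 of control 2. Rpl17, at the tunnel exit, was at 0 and 3.11 RPKM in the controls and 1.43 and 3.69 RPKM in Zscan4 OE. These values overlapped, and its difference of 2.09 turned to -0.41 without control 1. Rpl7 (chr1:16101295-16104433), a large subunit protein, had more reads behind it and was at 0.701 and 1.28 RPKM in the controls and 2.89 and 2.73 RPKM in Zscan4 OE, with 2, 10, 28 and 36 reads. Here the replicates of each group lay closer to each other than to the other group, and the log2 difference was 1.47 (SE 0.489, limma adjusted p = 0.679).

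Among the same 74 genes, those with the largest negative differences were Rpl26, Rpl29, Rps25 and Rpl27. Rpl29 (chr9:106428889-106431568), a large subunit protein, was at 3.35 and 1.84 RPKM in the controls and 1.72 and 1.63 RPKM in Zscan4 OE. The groups did not overlap, and the log2 difference was -0.54 (SE 0.492, limma adjusted p = 0.869). Rpl27 was at 9.21 and 1.57 RPKM in the controls and 3.43 and 2.13 RPKM in Zscan4 OE, so that control 1 alone held it high. The differences of Rpl26 (-0.57), Rps25 (-0.52) and Rpl27 (-0.49) all turned positive without control 1, at 0.41, 0.30 and 0.75, while that of Rpl29 kept its sign in each fit that left out a library.

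Genes grouped by role gave the same result. The stalk proteins Rplp0, Rplp1 and Rplp2 recruit translation factors to the large subunit. Rplp2 was at 1.82 and 1.16 RPKM in the controls and 2.94 and 3.05 RPKM in Zscan4 OE, without overlap. Rplp0 was at 1.70 and 1.45 against 3.34 and 1.72 RPKM, also without overlap, but Zscan4 OE 2 was nearly level with control 1. Rplp1, on 19 reads, ran from 0.818 to 7.55 RPKM and overlapped. Rpl5 and Rpl11 bind 5S ribosomal RNA and, when free, Mdm2. Rpl11 was at 1.40 and 0.894 RPKM in the controls and 2.67 and 1.74 RPKM in Zscan4 OE, and Rpl5 at 2.40 and 0.439 against 1.49 and 1.41 RPKM. The groups were apart for Rpl11 and overlapped for Rpl5. Rpl4, which reaches into the peptide tunnel, was at 3.29 and 1.54 against 2.21 and 2.03 RPKM, and overlapped. All of these had a limma adjusted p of 0.869 or more.

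Among small subunit genes Rps6, the protein phosphorylated by S6 kinases, was at 1.78 and 1.52 RPKM in the controls and 6.82 and 1.80 RPKM in Zscan4 OE. The groups did not overlap, but Zscan4 OE 2 was close to control 1. Rps14, which lines the messenger RNA path, was at 1.36 and 1.49 RPKM against 4.81 and 1.03 RPKM, and Rps19, mutated in the human anaemia Diamond-Blackfan, at 3.02 and 1.62 against 3.08 and 2.05 RPKM. Rps3 at the messenger RNA entry was at 2.52 and 1.31 against 2.85 and 1.14 RPKM, and Rps2 at 5.15 and 1.51 against 2.58 and 1.56 RPKM. In each of these 4 the groups overlapped. Rpsa, also known as the laminin receptor precursor, was at 1.78 and 1.63 against 3.32 and 1.22 RPKM, and Rps27a, made as a fusion with ubiquitin, at 1.91 and 1.05 against 3.09 and 1.14 RPKM. Both overlapped, with Zscan4 OE 1 highest.

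Leaving out a library made calls that rested on few reads, with the remaining single library of a group assumed to vary like the other group. Rpl10l was called without Zscan4 OE 1 (adjusted p = 0.00477) and without Zscan4 OE 2 (adjusted p = 0.0232), where limma called 10.5% and 9.46% of all rows higher and 0.0218% and 0.0049% lower. Without Zscan4 OE 2 so were Rpl32l and Rpl6l, on 1 read each. At 20 reads or more, Rps12, Rps15 and Rps7 were called higher without control 1 (2.47% of rows higher, 0.363% lower), and Rpl17, Rpl8, Rps26 and Rps4x without control 2 (4.23% higher, 0.947% lower). At that minimum 0 were called without Zscan4 OE 1 (0.0263% of rows higher, 0.0105% lower) or without Zscan4 OE 2 (0.147% higher, 0.0105% lower). Rps12 had 3, 2, 26 and 15 reads and Rps26 had 1, 10, 25 and 16. Of the 7 genes, 4 had 0 reads in 1 control, and the call came with the other control left out for Rps15, Rpl17, Rpl8 and Rps4x.

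The paralogues and copies were less accessible than the core genes. Pooled over 11 genes they stood at 0.964, 0.759, 1.92 and 0.707 RPKM, against 2.39, 1.26, 3.18 and 1.76 RPKM over the 77 core genes. They were lower in each of the 4 libraries. The group was partly set by low values, since the 4 copies with 1 read joined it after the table was seen. Without them the other 7 pooled to 1.15, 0.944, 2.42 and 0.912 RPKM, still below the core genes in each library. Rpl10l (chr12:66283379-66284401) is an intronless copy of the X-linked Rpl10, active in the male germ line, with a recovered length of 1023 bp equal to its span. It was listed at 0 in both controls and at 1.63 and 0.399 RPKM in Zscan4 OE, on 0, 0, 6 and 2 reads. Both Zscan4 OE values were above the controls, but at 1023 bp 3 reads would be 2.76 RPKM in control 1 and 1.01 RPKM in control 2, and the value of Zscan4 OE 1 lies under the first of these limits and that of Zscan4 OE 2 under both. The limma log2 difference of 3.21 (SE 1.05, adjusted p = 0.662) depends on the pseudocount. Rpl10 was above Rpl10l in all 4 libraries, with 2, 4, 14 and 10 reads.

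Rpl3l (chr17:24727826-24736143) is a paralogue of Rpl3 with introns, known from striated muscle. It was at 1.72 and 0.629 RPKM in the controls and 2.19 and 0.994 RPKM in Zscan4 OE, so the groups overlapped. Rpl3 (chr15:80077781-80083406) was at 2.67 and 1.95 RPKM in the controls and 4.63 and 3.54 RPKM in Zscan4 OE, without overlap. Rpl3l was under Rpl3 in all 4 libraries, at 0.433 of its mean level (0.679 in the values as deposited), and Rpl10l was at 0.453 of that of Rpl10, which fell to 0.154 without Zscan4 OE 1. Of 86 other ribosomal protein genes, Rpl3l exceeded 32, 15, 21 and 16 and Rpl10l exceeded 0, 0, 12 and 5 in the libraries in order. Rpl3l was thus inside the range of the family in each library, below its median. The printed promoters of both carry no CGGAAG.

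**Figure D5:**
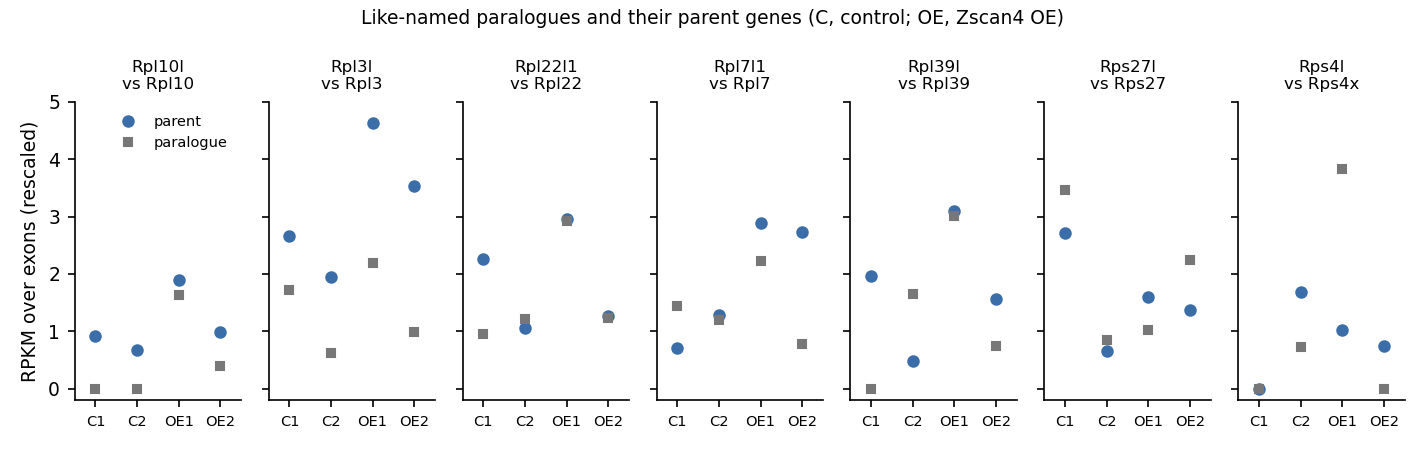
RPKM over exons (vertical axis) of 7 paralogues (grey squares) and their parent genes (blue circles) in the 4 libraries, C1 and C2 for the controls and OE1 and OE2 for Zscan4 OE. Rpl10l and Rpl3l lie below their parents in each library, and Rps4l at 3.82 RPKM in OE1 is the highest paralogue value.

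Most of the other paralogues were also below their parents. Rpl22l1 and Rpl7l1 were under Rpl22 and Rpl7 in 3 of 4 libraries, as was Rpl39l, a male germ cell paralogue of Rpl39. Rpl22l1 was at 0.947 and 1.21 RPKM in the controls and 2.93 and 1.23 RPKM in Zscan4 OE, on 2, 7, 21 and 12 reads. The groups did not overlap, but Zscan4 OE 2 was nearly level with control 2. Rpl22 was at 2.27 and 1.06 against 2.95 and 1.26 RPKM. Rps27l, a paralogue of Rps27 induced by p53, was above Rps27 in 3 libraries, at 3.46, 0.844, 1.02 and 2.25 RPKM. Rps4l was below Rps4x in 2 libraries and had 0, 2, 13 and 0 reads, so that Zscan4 OE 1 held 13 of its 15 reads. Rpl32l, Rpl6l, Rps3a2 and Rps3a3 had 1 read each and were below their parents in all 4 libraries. Reads from such copies, and from 216 named ribosomal protein pseudogene rows of which 171 had reads, can match a parent gene equally well. The sources used here do not say how the authors' counting treated such reads, so values of both parent and copy are uncertain.

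Other genes of protein synthesis gave 0 calls as well. Summed reads of 38 translation factor genes were 242, 153, 316 and 207 RPM, with a ratio of Zscan4 OE to control means of 1.32, and those of 47 ribosome biogenesis genes 350, 240, 487 and 310, with a ratio of 1.35. Control 1 was above Zscan4 OE 2 in both lists, as in the ribosomal protein genes. The 78 mitochondrial ribosome genes had a ratio of 1.15, and all rows 1.05. Control 1 was above Zscan4 OE 2 in these as well, so that order is not particular to genes of protein synthesis. Positive and negative limma differences numbered 32 and 6 for translation factors (median 0.52), 35 and 12 for biogenesis (0.34) and 48 and 30 for the mitochondrial ribosome (0.19), beside 62% positive and a median of 0.28 over all rows. Among genes with 20 reads or more, those at the ends were Eif3f (1.95) and Eif3a (1.70), subunits of an initiation factor, against Eif1 (-0.55) and Eif4b (-0.37). For biogenesis they were Gar1 (1.74), a protein of RNA pseudouridylation, and Ebna1bp2 (1.46) against Rpf2 (-1.02) and Ddx10 (-0.53). Mrpl49 (2.10), with 1, 2, 15 and 19 reads, and Mrpl41 (1.64) stood against Mrpl1 (-1.06) and Mrps12 (-1.02) in the mitochondrial ribosome.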

How the data were processed

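ATAC-seq libraries of 2 control and 2 Zscan4 OE cell samples were analysed from 1 deposited table. Per the labels its values are RPKM, and per the submitters' processing notes the authors used Trimmomatic, Bowtie2 and featureCounts with build mm10. Not given in the sources used here were versions, annotation, read filters and any shift of read ends. The deposited RPKM values were not on 1 scale: each is a whole read number divided by a feature length and by 1 of 8 totals that take turns from row to row. Reads and lengths were recovered for all 38361 rows with 2 or more values, and each value was rescaled to its library's own total. The totals were placed in the rotation order that made exon shares most alike (a ratio of 1.365 between libraries, 4.17 to 10.15 for the other 7 placements), so levels across libraries rest on that choice. All 4 members with 1 value above 0 allow more than 1 length. In 1099 short RNA genes the recovered length equalled the annotated one in 88%.

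The planned limma test (limma 3.58.1, R 4.3.3, eBayes with trend, no covariate, two-sided, threshold 0.05) was kept on log2(rescaled RPKM + 0.1), since the RPKM turned out not to share 1 total per library. It was also run on simulated data, with noise independent between genes and libraries and without the shift between replicates seen here. That run thus does not show how well the test finds differences in these libraries. A log2 difference on this scale understates the change of low genes. Gene coordinates came from RefSeq by symbol (GRCm38.p6), which all 88 matched. Alternatives were pseudocounts of 0.01 and 1, no minimum, 20 reads or more, centring, quantile normalization, exon reads as total, the values as deposited, voom, the replicate number as a block, and each library left out.

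The members and gene lists were chosen with earlier results of these data known, and 4 copies with 1 read were set apart from the core genes after the table was seen. Named with values are the 4 most positive and 4 most negative genes and the 4 highest and 4 lowest among those with 20 reads or more, the paralogues and their parents, genes by role, any gene called in a fit, and the 2 genes at each end of each other list. Rps15a, Rps24, Rpl36a, Rpl7a and those shown only in a plot were added after their values were seen. A further list of ribosome genes outside the naming rule is not reported here.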

Additional observations from a re-analysis of the deposited data

How the results depend on the processing

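Depth and 2 libraries a group limit each comparison, and 0 genes were called with all 4 libraries under any pseudocount, filter or scaling. Leaving out 1 library gave 0 to 4 called genes. The median log2 difference, 0.42, was 0.26 to 0.58 except when centred or as deposited. With a library left out it ran from 0.00 to 0.98. Centred it was 0.14, against 0.00 over all rows. As deposited, where the values mix totals, it was 1.82, against 1.40 over all rows. There 84 genes were positive and 3 negative, against 84.2% positive over all rows. With quantile normalization 67 genes were positive and 20 negative, against 48.5% positive over all rows. The ratio of summed reads was 3.43 as deposited and 0.956 to 1.94 with a library left out. The level relative to all rows was 1.35 by means, 3.10 with no minimum of reads and 1.76 to 2.13 with a library left out, and the subunit ratio 1.01 to 1.08.

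Without Zscan4 OE 1, 43 genes were positive and 43 negative, where 57.3% of all rows were positive. Without control 2, 48 genes were positive and 39 negative, where 57.1% of all rows were positive, so many signs turned. Of the 8 genes at the ends, those that changed sign were Rpl17 (-0.41 to 4.59 with a library left out), Rpl26 (0.85 as deposited, -1.55 to 0.41 with a library left out, 0.15 without Zscan4 OE 2), Rps25 (-1.35 to 0.30) and Rpl27 (0.95 as deposited, -1.73 to 0.75), and the cause was not tested beyond the reads given. The labels tie replicates across groups only by a number. Differences between replicates 1 and 2 correlated across the 74 genes at r = 0.13 between the groups. This r leaves out any shift common to all genes. In summed ribosomal protein RPM, replicate 1 over replicate 2 was 1.86 in controls and 1.84 in Zscan4 OE. Whether libraries with the same replicate number shared a batch was not tested. With the number as a block 0 genes were called, with 9 higher at an unadjusted p under 0.05 (3.96% of rows higher, 1.67% lower) against 3 without it, and 15 (4.89% and 1.71%) against 7 at 20 reads or more.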
